A study of Arabidopsis thaliana with 2 samples.

Results

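RAB18, LTI30, ERD14 and M17 are 4 Arabidopsis genes for late embryogenesis abundant (LEA) proteins. They were taken as all rows of the authors' 4 tables of splicing events whose gene identifier maps to AT5G66400 (RAB18), AT3G50970 (LTI30), AT1G76180 (ERD14) or AT2G41260 (M17). This gave 8 of the 270 listed events, and 4 of the 227 genes with an event. The genes were chosen by their event reads in the tables, which were known when they were proposed, so read counts and shares below are a description and carry no test. RNA came from wild-type and lefko mutant embryos of the Col-0 ecotype, dissected from siliques between the globular and the heart stage, and the plants were raised on plates and then in pots under long days, per the labels' protocols. The labels give 1 sample per genotype and do not say how many embryos were pooled. The mutant sample carries the name lefko1, and the tables and the series title say lefko2. The mutated gene is not named, so it could not be checked here.

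LEA proteins are small hydrophilic proteins that accumulate in seeds as they mature and dry, and in vegetative tissue under drought, cold and abscisic acid. Dehydrins are the LEA class that carries lysine-rich repeats called K-segments, through which they bind membranes and protein surfaces. RAB18 is the classic dehydrin that responds to abscisic acid, LTI30 (also XERO2) is a cold-induced dehydrin built largely of repeats, and ERD14 is an acidic dehydrin first found as an early drought response gene. M17 is annotated as a glycine-rich LEA protein. Globular and heart embryos precede seed maturation, the phase in which LEA transcripts normally build up.

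Each event was listed with reads that include an alternative stretch of RNA and reads that skip it. Every cell joins 3 whole numbers, and no label says whether these are cultures, libraries or runs. The 3 numbers are given below as joined values, in the order in which they were deposited, and a share is that of their sum. Intervals are exact 95% intervals and cover counting error only. Over all 270 events the median was 91 reads in the wild type and 43.5 in the mutant, and the reads of the mutant were a median 0.472 times those of the wild type. Summed over the 262 events of other genes, the joined values came to 31824, 30412 and 17658 in the wild type and to 26124, 30914 and 47696 in the mutant. A single exon skipping event of another gene held 30376 of these mutant reads and 81 of the wild-type reads. The sums are therefore not a measure of library depth. None of the 14 marker genes looked for (6 of young embryos, 3 of endosperm, 5 of seed coat) has an event, so the tables do not allow the tissue to be checked.

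The 8 events are of 2 kinds. RAB18, LTI30 and M17 have 5 events in the intron retention table, and RAB18 and ERD14 have 3 in the table of alternative 5′ splice sites, all 3 of which join sites over 10 kb apart. The 5 segments listed as retained introns all lie inside a block of coding sequence of at least 1 annotated transcript. M17 segment 1 starts inside a stretch that another annotated M17 transcript removes as an intron. None of the 5 equals an annotated intron, whereas 89 of the 110 other retention segments (80.9%) do. Only 1 of those 110 (0.909%) likewise lies inside a coding block and equals no annotated intron.

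**Figure D1:**
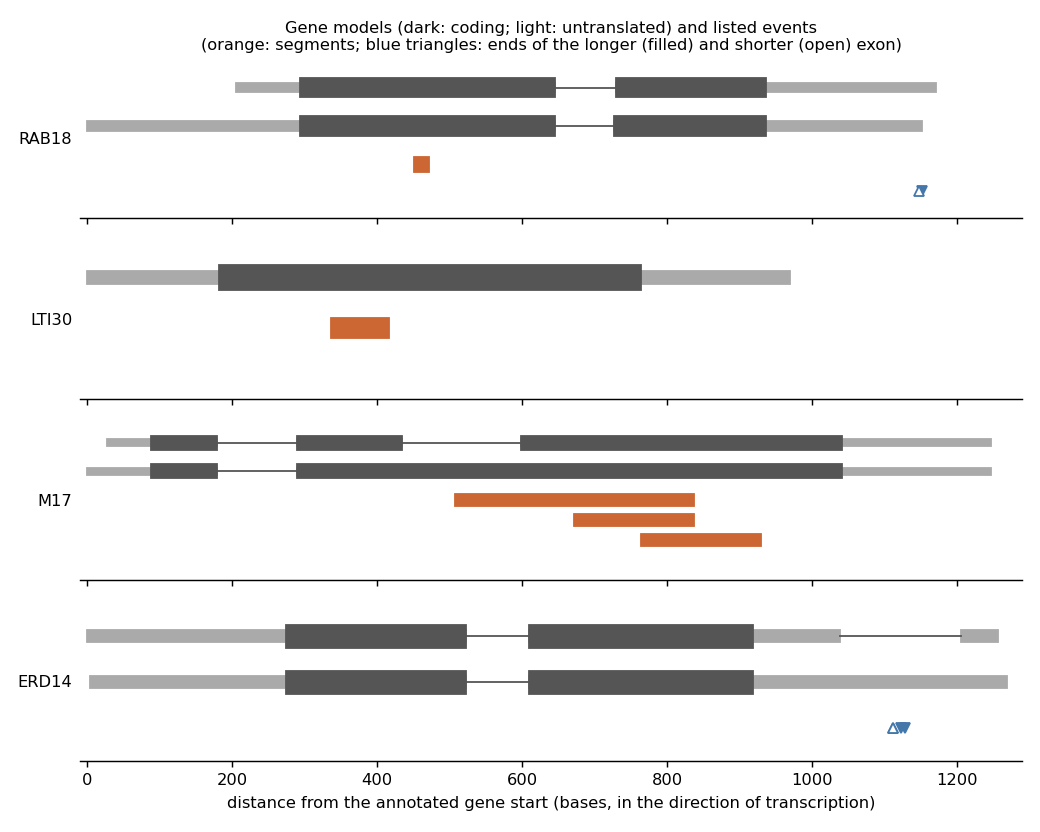
Gene models of RAB18, LTI30, M17 and ERD14 with their listed events, plotted by distance in bases from the annotated gene start. Dark boxes are coding, light boxes untranslated and lines annotated introns. The 5 orange segments lie under coding boxes. The blue triangles, the ends of the longer and shorter exons, lie in the 3′ untranslated region of at least 1 annotated transcript.

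The segments of the 3 genes are shown because their sequence sets them apart from all but 1 of the other listed introns. The reference is the RefSeq copy of the TAIR10.1 assembly, each sequence is given 5′ to 3′ on the gene's own strand, and in the RAB18 and LTI30 lines the listed segment is in capitals. In the M17 line the first and last pair of bases of the segment are in capitals.
RAB18 segment with 21 bases on each side, chr5:26518955-26519017, minus strand: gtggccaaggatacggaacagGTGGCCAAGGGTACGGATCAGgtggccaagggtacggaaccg
LTI30 segment with 30 bases on each side, chr3:18940949-18941089, plus strand: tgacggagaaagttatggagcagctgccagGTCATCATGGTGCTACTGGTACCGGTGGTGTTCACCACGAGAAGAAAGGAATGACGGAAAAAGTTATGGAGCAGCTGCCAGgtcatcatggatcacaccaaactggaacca
M17 segment 2, chr2:17207124-17207288, plus strand: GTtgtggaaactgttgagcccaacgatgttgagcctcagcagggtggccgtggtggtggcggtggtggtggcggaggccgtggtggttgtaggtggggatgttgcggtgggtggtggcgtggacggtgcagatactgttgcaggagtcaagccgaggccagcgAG

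All 5 segments begin with GT and end with AG, the ends of a usual intron, as do 106 of the 110 other retention segments. They differ from all but 1 of the others in being repeats. The RAB18 segment (chr5:26518976-26518996) is 21 bases long, against 57 for the shortest other segment. It is 90.5% identical to the 21 bases before it and 90.5% identical to the 21 after it. The LTI30 segment (chr3:18940979-18941059) is 81 bases long and 88.9% identical to the 81 bases before it. M17 segment 2 is 165 bases long and equals the 165 bases before it at every position. Segment 3 of M17 (chr2:17207216-17207380) is also 165 bases long and overlaps segment 2 by 73 bases. Segment 1 (chr2:17206959-17207288) is 330 bases long, which is 2 such units, and ends at the same base as segment 2. Every one of the 5 lengths is a multiple of 3, against 45 of the other 110 (40.9%), so that skipping any of them would leave the reading frame of the annotated protein as it is.

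The repeats also reach across the ends of the segments. The length of exact direct repeat at the ends, which is the number of bases by which a segment could be shifted without changing the joined RNA, was 20 bases in RAB18 and 32 in LTI30. In M17 it was 164, 329 and 83 bases for segments 1, 2 and 3. The median over the 110 other retention segments was 2 bases, and 1 of them (0.909%) reached 20 bases, the annotated intron of AT2G29210, with 48. That intron is 57 bases long, a multiple of 3, and lies inside a coding block of an annotated transcript. It is 78.9% identical to the stretch of the same length after it. Over the 133510 annotated introns of nuclear mRNAs the median was also 2 bases, and 205 introns (0.154%) reached 20. The line of 20 bases equals the RAB18 value, the lowest among the segments of these 3 genes, so all of their segments reach it. The exact start and end of a skipped stretch in these 3 genes is therefore not fixed by the joined sequence.

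**Figure D2:**
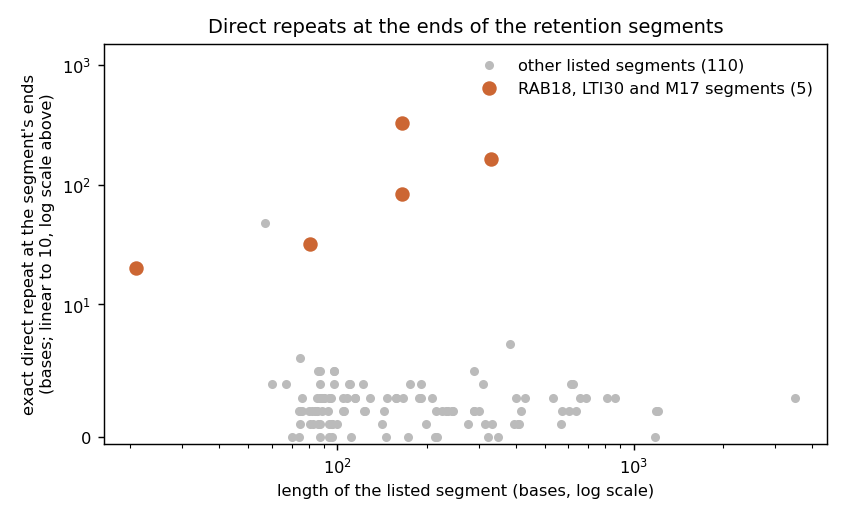
Length of the exact direct repeat at the ends of each of the 115 listed retention segments (vertical axis, bases, linear to 10 and log above) against segment length (bases, log scale). The 5 segments of RAB18, LTI30 and M17 lie between 20 and 329 bases, while all but 1 of the other 110 lie under 10.

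M17 adds an annotated case of the same kind. One of its 2 annotated transcripts (NM_129691.3) lacks an intron of 165 bases (chr2:17206886-17207050) that the other transcript keeps as coding sequence. The copy of the unit that follows it in the coding block is identical to it. With segment 2 removed, the 958-base exon of the gene gives the same 793-base sequence as with the annotated intron removed, with 0 differences. Reads across either of these 2 joins therefore cannot be told apart by sequence when no other stretch is removed. The exon listed for segments 2 and 3 (chr2:17207051-17207698) starts at the first base after that annotated intron, and the one listed for segment 1 (chr2:17206741-17207698) contains it. Among all 133510 annotated introns, the 165-base M17 intron has the longest exact direct repeat, 329 bases.

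The event reads of RAB18 were far higher in the mutant. At the 21-base segment the wild-type joined values were 326, 295 and 235 reads and the mutant values 5499, 6100 and 8699. The lowest mutant value was 16.9 times the highest wild-type value. The summed ratio was 23.7 (22.1 to 25.4, from 856 and 20298 reads). This one event held 49.9% of all mutant reads of the retention table and 2.77% of the wild-type reads, in reads not corrected for length. At the distant 5′ splice site event of RAB18 the wild-type values were 59, 82 and 35 reads and the mutant values 2832, 1947 and 3283. The ratio there was 45.8 (39.4 to 53.5). Leaving out joined value 2 or 3 of both genotypes put it at 65.1 or 33.9.

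LTI30 and M17 went the same way, on fewer reads. LTI30 had 34, 61 and 29 reads in the wild type and 705, 692 and 854 in the mutant, without overlap, a ratio of 18.2 (15.1 to 21.9). M17 segment 3, the best covered of its 3, had 18, 5 and 10 reads in the wild type and 140, 148 and 197 in the mutant, a ratio of 14.7 (10.3 to 21.6). Segment 1 had 6, 2 and 5 reads against 50, 49 and 89, a ratio of 14.5 (8.25 to 27.7). Segment 2 had 7, 2 and 2 reads against 37, 36 and 68, a ratio of 12.8 (6.95 to 26.3). The M17 segments overlap, so their inclusion reads can be the same molecules. Without joined value 1 the ratios of segments 2 and 3 were 26.0 and 23.0, and without joined value 3 that of segment 2 was 8.11, so the M17 ratios rest on few wild-type reads. These ratios are of raw reads from 1 sample per genotype. In bulk embryos, more cells with these transcripts and more transcript per cell cannot be told apart. Nor can they be told apart from a different embryo stage, other seed tissue or sequencing depth.

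ERD14 did not share the excess in its 2 events, both of which join sites over 10 kb apart. It has no listed segment to set beside those of RAB18, LTI30 and M17. Its first event had 99, 74 and 42 reads in the wild type and 29, 56 and 85 in the mutant, with overlapping values and a ratio of 0.791 (0.643 to 0.971). Its second event had 96, 143 and 80 reads against 41, 60 and 63, a ratio of 0.514 (0.423 to 0.623), with all 3 mutant values under the wild-type values. For the first event the ratio was 1.22 without joined value 1 and 0.491 without joined value 3. Both ratios lie above the median ratio of all events, 0.472, by factors of 1.67 and 1.09, so the direction is lower in raw reads and not lower when set against the other events.

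**Figure D3:**
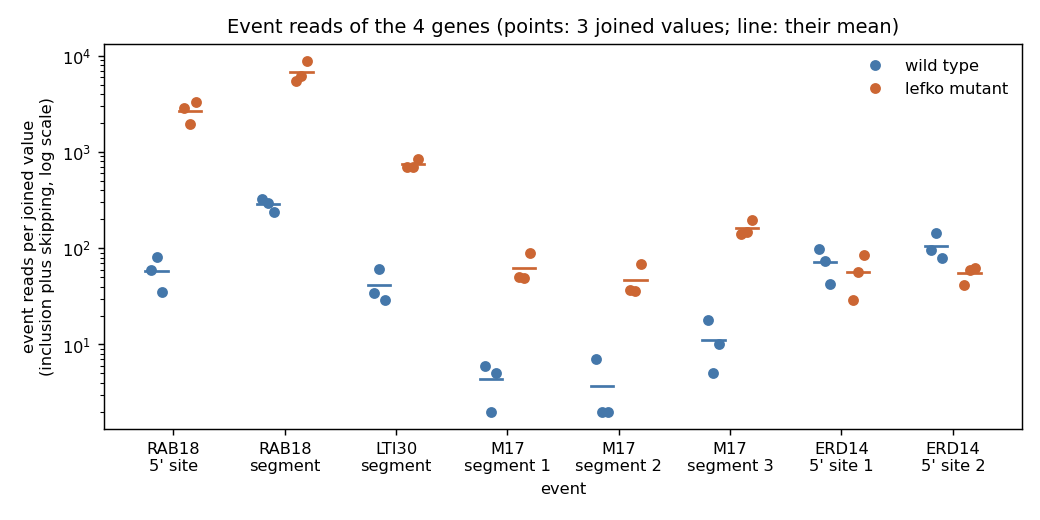
Event reads (inclusion plus skipping, log scale) in each of the 3 joined values of the wild type (blue) and the lefko mutant (orange) for the 8 events; lines are the means of the 3 values. Mutant points lie above all wild-type points in the 6 events of RAB18, LTI30 and M17, from 36 against 7 reads in M17 segment 2 to 5499 against 326 in the RAB18 segment, and not in the 2 events of ERD14.

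An excess of over 10 times in the mutant was seen in 6 of the 8 events of these genes, and in 18 of all 270 events (6.67%), or 12 of 227 genes by their event with the most reads (5.29%). Since the genes were chosen by these reads, nothing is read from that count. The opposite excess, over 10 times in the wild type, was seen in 6 of 270 events (2.22%) and in 0 of the 8. In the order of ratios the RAB18 events stood at places 4 and 5 of 270, LTI30 at 7, the M17 events at 12, 13 and 16, and the ERD14 events at 76 and 123. Just above the 10-fold line stood an exon skipping event of FOLB3 (12.8) and an event of XTH25 (12.5), and just below it events of AT1G10810 (6.47) and AT4G03005 (6.29). The events outside the lists of LEA and seed maturation genes whose log2 ratio was closest to the median of the 6 RAB18, LTI30 and M17 events (4.03) were in AT2G48130 (4.00, from 33 and 528 reads), XTH25 (4.11, from 108 and 1865) and AT3G19920 (3.89, from 93 and 1377). This likeness compares 1 ratio per event, from 1 sample per genotype.

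**Figure D4:**
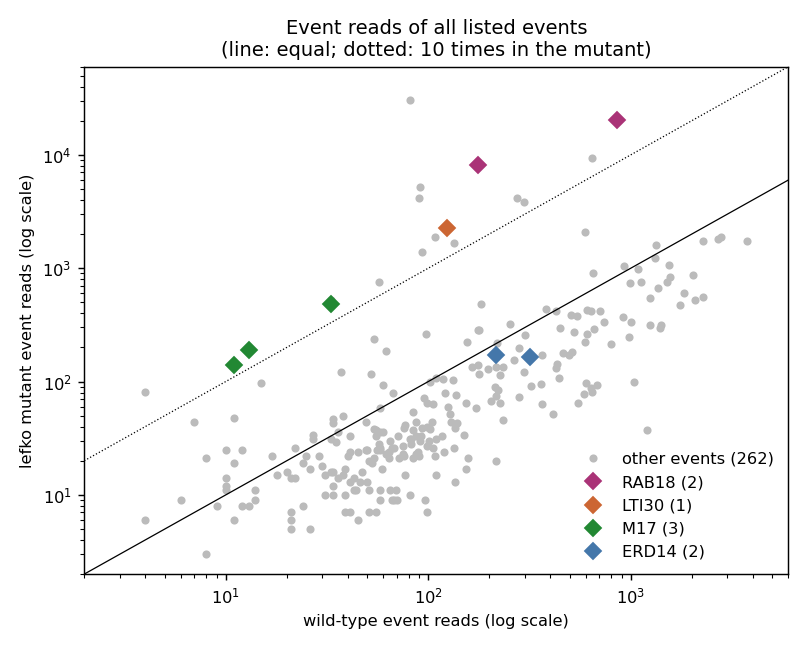
Mutant against wild-type event reads (both log scales) for all 270 listed events; the line marks equal reads and the dotted line 10 times as many in the mutant. The 6 events of RAB18, LTI30 and M17 lie above the dotted line with ratios of 12.8 to 45.8, and the 2 of ERD14 lie among the other events at 0.791 and 0.514.

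On a list of 25 dehydrin and LEA genes, 4 had an event, the 4 described here, and these were known to have one when the list was written. The other 21 had none, where 0.776% of all nuclear protein-coding genes (213 of 27444) had one, so nothing is read from their absence. Among these 21 are ERD10, COR47 and XERO1 (dehydrins), EM1 and EM6 (the Em proteins of dry seeds) and COR15A (a cold-induced chloroplast protein). On a list of 21 seed maturation genes, 2 had an event, both joining sites over 10 kb apart. CRA1, a cruciferin storage protein, had a ratio of 15.1 (275 and 4154 reads) and PAP85, a vicilin-like storage protein, 13.2 (57 and 754). The tables list only events that passed the authors' threshold, with a largest false discovery rate (FDR) of 0.05, so a gene without an event has no level here.

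Skipping of the repeat segments was listed in the mutant. At the RAB18 segment the 3 mutant values were 8.26%, 9.34% and 10.2% skipping reads, and the sum was 9.43% (9.03 to 9.84, 1914 of 20298 reads). In the wild type 0 of 856 reads skipped it. With 3 reads allowed for a count of 0, a share of up to 0.350% is allowed, and the exact interval reaches 0.430%. At the mutant share those 856 reads would have held 80.7 skipping reads. Its FDR is 3.09e-12 in the authors' deposited table. The genotypes do not overlap in any joined value.

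LTI30 had skipping reads in the mutant too, at lower depth. Its mutant values were 7.23%, 13.0% and 6.21% skipping reads, with 8.62% overall (7.49 to 9.85, 194 of 2251 reads). The wild type had 0 of 124, which allows up to 2.42%, and 10.7 skipping reads would stand for the mutant share. The FDR in the authors' deposited table is 0.000172. The 81 skipped bases end in a near copy of the coding stretch that precedes them, as the sequence above shows.

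For M17 the wild-type depth does not resolve a difference. Segment 1 was skipped in 6%, 10.2% and 14.6% of the mutant reads, 11.2% overall (7.05 to 16.6, 21 of 188), and in 0 of 13 wild-type reads, a count that allows up to 23.1%. The mutant share is inside that limit, so a difference was not detectable at this depth, while the authors' deposited table gives an FDR of 8.23e-07. Segment 2, whose removal gives the same exon sequence as that of the annotated intron, had 35.1%, 11.1% and 26.5% in the mutant, 24.8% overall (17.9 to 32.8, 35 of 141). Its wild-type share was 9.09% (0.230 to 41.3, 1 of 11 reads), and the FDR in the authors' deposited table is 0.00751. Segment 3 had 9.29%, 9.46% and 12.2% in the mutant, 10.5% overall (7.93 to 13.6, 51 of 485), and 3.03% in the wild type (0.0767 to 15.8, 1 of 33), with an FDR of 0.0181 in the authors' deposited table. The joined values of the genotypes overlap for segments 2 and 3, and the intervals overlap for all 3.

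**Figure D5:**
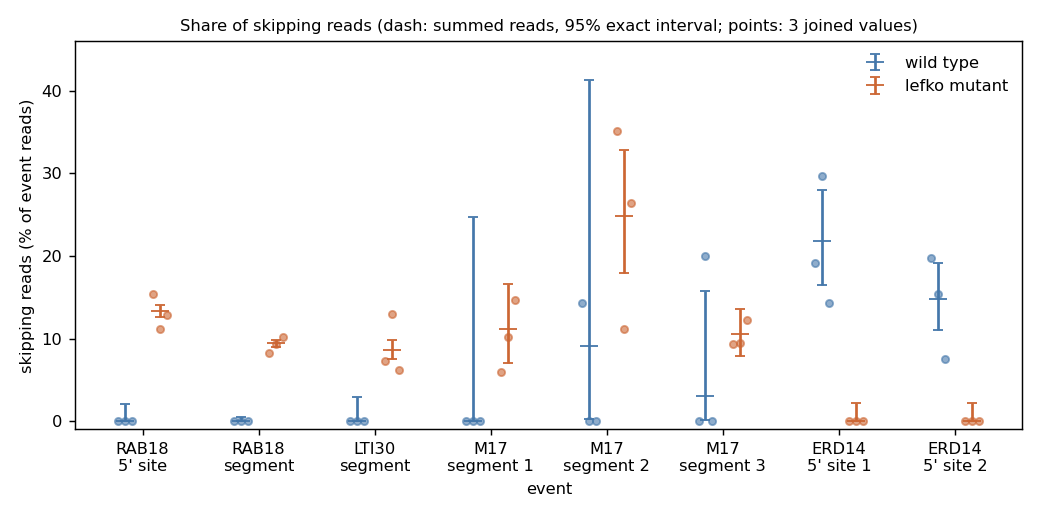
Skipping reads as a percentage of event reads for the 8 events in the wild type (blue) and the lefko mutant (orange); dashes are shares of the summed reads with exact 95% intervals, and points are the 3 joined values. RAB18 and LTI30 stand at 0% in the wild type and at 8.62% to 13.3% in the mutant, M17 intervals overlap, and ERD14 stands at 14.7% and 21.9% in the wild type and at 0% in the mutant.

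The 3 remaining events lie at the other end of the transcripts, in the 3′ untranslated region of RAB18 and of an annotated ERD14 transcript. The ERD14 exon ends lie inside a stretch that another annotated ERD14 transcript removes as an intron (chr1:28586727-28586892). The 3 events are shown because the far side of each join starts with a run of A. In each line on an exon end, the last 15 bases of the exon are in capitals and the next 15 bases of the genome follow, and in the lines on a far exon its leading run of A is in capitals.
RAB18 end of the longer exon, chr5:26518281-26518310, minus strand: ACTTTCTTCTGCTTAgtttgtgttacacct
RAB18 end of the shorter exon, chr5:26518286-26518315, minus strand: AATCTACTTTCTTCTgcttagtttgtgtta
RAB18 far exon, chr5:26463930-26463946, minus strand: AAAAAAAAAAAAAAAAA
ERD14 end of the longer exon in event 1, chr1:28586794-28586823, minus strand: GGTATGAATATTTTCatttgattaagtgat
ERD14 end of the longer exon in event 2, chr1:28586789-28586818, minus strand: GAATATTTTCATTTGattaagtgatatgga
ERD14 end of the shorter exon in both events, chr1:28586806-28586835, minus strand: AGGTATTTTAATGGTatgaatattttcatt
ERD14 far exon, first 30 bases, chr1:28566137-28566166, minus strand: AAAAAAAAAAAAAAAAAAAtgaataacata

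The far exon of RAB18 is listed as 17 bases long and consists of A alone. It lies 54349 bases away from the longer exon, over AT5G66230, a gene annotated on the other strand. The far exon of ERD14 is listed as 182 bases long, begins with 19 A and overlaps no annotated gene, 20642 and 20637 bases from the longer exons. Behind the longer RAB18 exon the genome reads GT and behind the shorter one GC, with AG before the far exon. Behind all 3 ERD14 exon ends it reads AT, with TC before the far exon, which are not the ends of a usual intron. The longer and shorter RAB18 exons stop 19 and 24 bases before the outermost annotated end of the gene. The longer one ends at chr5:26518296, just beyond the annotated end of another RAB18 transcript at chr5:26518297. The shorter one ends just before it, at chr5:26518301. For ERD14 the distances are 146 and 141 bases for the longer exons and 158 for the shorter one. A far exon that starts with 10 or more A was also listed in all 28 other alternative 5′ events over 10 kb, and in 0 of the 39 events within 10 kb.

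Reads were listed at both RAB18 ends in the mutant only, and at the shorter ERD14 end in the wild type only. For RAB18, the exon that is shorter by 5 bases took 15.4%, 11.1% and 12.9% of the mutant values, 13.3% overall (12.6 to 14.1, 1076 of 8062), and 0 of 176 wild-type reads, a count that allows up to 1.70%. For ERD14 the direction was opposite. The exon that is shorter by 12 bases took 19.2%, 29.7% and 14.3% of the wild-type values in event 1, 21.9% overall (16.5 to 28.0, 47 of 215), and 0 of 170 mutant reads, a count that allows up to 1.76%. In event 2, with a difference of 17 bases, the wild-type values were 19.8%, 15.4% and 7.50%, 14.7% overall (11.0 to 19.1, 47 of 319), against 0 of 164 mutant reads, a count that allows up to 1.83%. The 47 skipping reads are the same in both ERD14 events, so they are 1 observation. The FDRs in the authors' deposited table are 2.59e-07 for RAB18, and 7.61e-09 and 2.43e-05 for ERD14.

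Over the 8 events, the joined shares of the genotypes did not overlap in 6, where 193 of all 270 events (71.5%) did not. Without overlap, inclusion was lower in the mutant in 4 of the 8 events, against 29.3% of all 270, and higher in 2 of the 8, against 42.2% of all 270. Every listed event was selected for such a difference, and 6 of 8 is close to the background. A form at 0 in the wild type and present in the mutant was seen in 4 of the 8 events, both of RAB18, LTI30 and M17 segment 1, and in 10 of all 270 (3.70%). The reverse was seen in the 2 ERD14 events, which share the same 47 skipping reads, and in 49 of 270 (18.1%). The 8 events are thus not 8 separate observations, since the M17 segments overlap as well. In the 4 events with the form at 0 in the wild type, the mutant had 14.5 to 45.8 times as many reads, and the part of read depth in these counts was not tested beyond the limits given above.

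In the 250 bases before the annotated gene start, RAB18 holds 3 copies of the abscisic acid response element core ACGTG (either strand), 163, 111 and 18 bases before the start. LTI30 holds 3 copies of the cold and drought element core CCGAC (either strand), at 101, 78 and 9 bases. ERD14 holds 1 ACGTG, and M17 holds neither in this window. The other motif searched, the RY element CATGCA of seed genes (either strand), was in 0 of the 4 windows and in 8.43% of all. Of 27443 protein-coding genes, 22.9% have at least 1 ACGTG in this window and 2.99% have 3 or more. For CCGAC the shares are 12.0% and 0.197%. The RAB18 and LTI30 windows overlap AT5G66410 and AT3G50960, genes on the other strand, and a match is not a measured binding site.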

How the data were processed

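RNA of 1 wild-type and 1 lefko mutant sample of Arabidopsis embryos was sequenced from TruSeq Low Input libraries, per the labels' protocols. HISAT2 2.0.4 and TAIR10 are named in the submitters' processing notes, and the event caller is not given in the sources used here. As deposited by the authors, 4 tables hold 3 joined whole-number read counts per cell under the headings IC and SC, read here as inclusion and skipping reads. The p-value and FDR of each event are the authors' own, as deposited. Joined values were summed and no replicate model was run. Shares were not corrected for length, so they compare genotypes within an event. Shares have exact Clopper-Pearson intervals and ratios exact conditional intervals at 95%. These cover counting error only, because each genotype is 1 sample, and they take each read as a separate molecule. The labels mention no molecular identifiers, so that could not be checked. A count of 0 allows 3 reads of the total, a limit below the upper end of the exact interval. Listed starts count from 0: read so, 540 of 810 listed exons equalled an annotated mRNA exon, against 1 otherwise. Chromosome accessions equal those of TAIR10.1. Protein sequences and library totals were not used here. The genes, lists and motifs were chosen with earlier results of these data known. Genes named are the 4, listed genes with an event, the 3 with the closest ratio and those beside the 10-fold line. AT2G29210 was named after its value was seen. Interval and repeat functions were tested on simulated data. Python 3.11.15 and SciPy 1.17.1 were used. One sequence comparison within M17 is not reported here.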

Additional observations from a re-analysis of the deposited data

How the results depend on the processing

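Each genotype is 1 sample, so leaving out a joined value shows only how evenly the reads are spread. The ratios then ran from 33.9 to 65.1 (RAB18 5′ event), 18.7 to 27.9 (RAB18 segment), 14.7 to 24.7 (LTI30), 12.4 to 19.7, 8.11 to 26.0 and 12.0 to 23.0 (M17 segments 1 to 3), 0.491 to 1.22 and 0.423 to 0.591 (ERD14 events 1 and 2). Differences in inclusion, mutant minus wild type, ran from -14.1 to -12.2, -9.87 to -8.83, -10.1 to -6.67, -13.0 to -8.08, -21.2 to -12.2, -11.0 to -4.35, 17.7 to 24.1 and 12.6 to 17.2 points in the same order, and kept their sign. With medians of the joined values the ratio was 20.7 for the RAB18 segment and 0.625 for ERD14 event 2, and that of M17 segment 1 was 10, no longer over 10 times. With inclusion reads only it was 21.5 for the RAB18 segment and 1.01 for ERD14 event 1. With skipping reads only it was at least 359 and 638 for RAB18, at least 64.7 for LTI30, at least 7 for M17 segment 1, 35 (5.88 to 1421) and 51 (8.75 to 2053) for segments 2 and 3, and at most 0.0638 for both ERD14 events, with 3 summed reads for a count of 0. Divided by the median ratio of all events, the ratios were 97.0 and 50.2 (RAB18), 38.4 (LTI30), 30.6, 27.1 and 31.1 (M17), and 1.67 and 1.09 (ERD14), so ERD14 turned from lower to higher; this follows from the scaling itself. Events past 10 times in either genotype numbered 24 of 270, and 14 of the 237 without joins over 10 kb. Events with separate joined shares numbered 193 of 270 (71.5%), and 123 of the 163 (75.5%) with 5 or more reads in each joined value. Ratios past 10 times were thus more frequent among the 33 joins left out than among the other events. The count of separate shares is lower because fewer events were counted, and its percentage is not lower. Correction by form length was not run, since the tables give no such lengths. No paired analysis was possible because each genotype has 1 sample. The few wild-type M17 reads (11 to 33 an event) limit its shares.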
